A study of Mus musculus with 6 samples.

Results

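The mitochondrial ribosomal protein genes of the deposited table were the 77 rows, out of 12560, whose symbol begins with Mrpl or Mrps and a number. The rule used the symbol alone and no values, though it was chosen with earlier results of these data known. The samples are labelled as mouse chondrocytes, the cell type of cartilage, and their RNA had been sequenced. There were 3 libraries whose genotype is labelled control (control 1, 2 and 3) and 3 labelled Eldr cKO (Eldr cKO 1, 2 and 3). Eldr is a long noncoding RNA, and it had no row in the table, so the targeted gene gave no check of the labels. The allele and driver behind the Eldr cKO label, the genotype of the controls, and the age and number of the mice are not given in the sources used here. Whether libraries of a genotype stem from different mice or cultures is not stated, so p-values measure library-to-library spread only, possibly technical.

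Mitochondria carry their own ribosome, which translates the few respiratory chain proteins encoded by the mitochondrial genome. Its ribosomal RNA comes from that genome, while its proteins are encoded in the nucleus, made in the cytosol and imported. The proteins form a large subunit, which joins amino acids into protein, and a small subunit, which reads the messenger RNA. Many have a counterpart in the bacterial ribosome and the others are specific to mitochondria. The ribosome is known for its importance in tissues that respire heavily, heart muscle among them.

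By their place in the mammalian ribosome, 51 of the 77 genes encode proteins of the large subunit and 25 of the small subunit. Mrps18a and Mrps30 are named for the small subunit but sit in the large one and were counted there. Mrps36 is now assigned to the 2-oxoglutarate dehydrogenase complex and was counted in neither. A bacterial counterpart is known for 46 of the proteins and 29 are specific to mitochondria, with Mrpl55 and Mrps36 left unassigned. The genes were spread over 17 chromosomes, with 11 on chromosome 11 and 8 on chromosome 17. Their longest annotated transcripts had a median length of 1884 bases, against 3372 bases over all rows.

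RefSeq promoters on GRCm38.p6, from 250 bases before to 50 bases after a gene's start, were matched by symbol for 68 of the 77 genes and not for Mrpl4, Mrpl13, Mrpl15, Mrpl19, Mrpl38, Mrpl54, Mrps28, Mrps34 and Mrps35. They were searched on both strands for 3 motifs of factors known to act on housekeeping and mitochondrial genes. These were the NRF1 consensus, CCGGAAGT for the ETS family and AAGATGGC for YY1. Matches were allowed to overlap one another. The NRF1 motif was in the promoters of 13 of the 68 genes (19.1%), the ETS motif in 12 (17.6%) and the YY1 motif in 11 (16.2%). Over all 27025 genes with a promoter, the shares were 5.19%, 4.31% and 3.19%, and over the 9614 of them that had a row in the deposited table they were 10.6%, 8.21% and 4.78%. At least 1 motif was present for 33 of the 68 genes (48.5%), for 11.7% of all genes and for 21.4% of those in the table. The promoters had a median of 21.5 CpG dinucleotides and 58.5% G and C, against 19.0 and 60.0% for promoters of genes in the table. Such a match describes the letters alone.

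The promoters below belong to Mrpl23, Mrpl30, Mrpl42 and Mrps25, the 4 genes that lay above 0 in every library, and to Mrpl51, shown as an example of the ETS motif. Capitals mark motif matches. Mrpl30 holds an NRF1 match on the reverse strand that begins 83 bases before the start, Mrpl42 a YY1 match that begins 27 bases after it and Mrpl51 an ETS match that begins 90 bases before it. Mrpl23 and Mrps25 hold none of the 3.
Mrpl30 (chr1:37890227-37890526, plus strand): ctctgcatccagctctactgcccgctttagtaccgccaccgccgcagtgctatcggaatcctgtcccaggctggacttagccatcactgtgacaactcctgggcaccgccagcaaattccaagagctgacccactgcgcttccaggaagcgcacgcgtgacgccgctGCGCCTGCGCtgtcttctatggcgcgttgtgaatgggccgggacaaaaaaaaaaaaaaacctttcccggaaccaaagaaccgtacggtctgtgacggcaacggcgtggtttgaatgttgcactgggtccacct
Mrpl42 (chr10:95501900-95502199, minus strand): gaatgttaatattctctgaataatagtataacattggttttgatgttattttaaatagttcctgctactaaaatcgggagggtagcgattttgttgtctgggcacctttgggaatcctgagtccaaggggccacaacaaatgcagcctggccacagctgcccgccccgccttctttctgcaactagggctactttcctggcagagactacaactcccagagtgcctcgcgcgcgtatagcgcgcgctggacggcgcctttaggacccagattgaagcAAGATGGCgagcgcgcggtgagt
Mrpl51 (chr6:125191950-125192249, plus strand): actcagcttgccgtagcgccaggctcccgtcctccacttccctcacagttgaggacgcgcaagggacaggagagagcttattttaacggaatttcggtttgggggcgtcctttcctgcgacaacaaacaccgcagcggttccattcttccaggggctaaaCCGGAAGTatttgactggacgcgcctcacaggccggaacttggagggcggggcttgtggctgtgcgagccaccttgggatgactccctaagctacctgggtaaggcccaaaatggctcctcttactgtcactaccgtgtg
Mrpl23 (chr7:142532782-142533081, plus strand): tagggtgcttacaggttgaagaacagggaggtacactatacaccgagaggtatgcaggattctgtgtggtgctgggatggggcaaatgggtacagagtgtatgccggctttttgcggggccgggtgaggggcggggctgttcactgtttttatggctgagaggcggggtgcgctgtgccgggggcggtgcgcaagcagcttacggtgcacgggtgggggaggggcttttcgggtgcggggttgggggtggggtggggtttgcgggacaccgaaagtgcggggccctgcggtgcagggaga
Mrps25 (chr6:92183974-92184273, minus strand): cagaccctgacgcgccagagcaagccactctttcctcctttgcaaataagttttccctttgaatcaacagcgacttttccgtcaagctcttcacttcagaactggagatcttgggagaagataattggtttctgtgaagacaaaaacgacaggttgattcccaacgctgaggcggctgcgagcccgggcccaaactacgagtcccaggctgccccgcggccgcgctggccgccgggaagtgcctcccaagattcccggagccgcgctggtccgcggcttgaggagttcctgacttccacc

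The libraries were shallow, and that sets what can be read from these genes. The table gives FPKM, fragments per kilobase and per mapped fragments of the library, so levels are per length. Depth was estimated by taking the most frequent product of FPKM and transcript length, over genes with 1 annotated transcript, as 1 fragment. It came to 465924, 80057 and 131248 fragments for the controls (1, 2 and 3) and to 193483, 52146 and 56298 for Eldr cKO (1, 2 and 3). On a transcript of 1 kb, 1 fragment was worth from 2.15 FPKM (control 1) to 19.2 FPKM (Eldr cKO 2). Transcripts of the mitochondrial genome took 68.0%, 70.0% and 41.1% of the summed FPKM in control 1, 2 and 3 and 43.6%, 33.9% and 33.8% in the Eldr cKO libraries, so the mean share was lower with Eldr cKO while control 3 and Eldr cKO 1 overlapped. Of 16 chondrocyte markers, 7 were listed, of which 0 were above 0 throughout, and Col2a1 and Acan were not among the rows. Their summed level was 0.616 to 22.0 FPKM across the controls and 6.44 to 18.7 FPKM across Eldr cKO. Sox9, the transcription factor of chondrocyte identity, was listed at 0 in control 2 and Eldr cKO 2. Of 12 heart muscle markers, 12 were listed, of which 10 were above 0 throughout, with summed levels of 1017 to 9419 FPKM across the controls and 1993 to 8623 FPKM across Eldr cKO. The defining cartilage genes were therefore sparse or not listed while heart muscle genes were abundant in samples labelled chondrocytes. In bulk RNA, fewer cells of a type and less RNA per cell cannot be told apart.

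Detection of the mitochondrial ribosomal protein genes followed the order of depth, except between Eldr cKO 2 and 3. The controls listed 77, 33 and 45 of the 77 above 0, and the Eldr cKO libraries 71, 26 and 25, in the order of their numbers. The deepest library of each genotype thus listed nearly all of them, and the other libraries between 32.5% and 58.4%. Over all rows of the table the shares above 0 were 79.1%, 37.6% and 62.4% in the controls and 73.6%, 36.6% and 39.1% in Eldr cKO. Genes of the cytosolic ribosome were above 0 more often in every library but control 1, with 93.1% to 97.7% of 87 above 0. In control 1 their share was 97.7%, against 100% for the mitochondrial ribosome. Nuclear subunits of oxidative phosphorylation, the machinery to which the mitochondrial ribosome supplies core parts, lay between, with 75.6% to 98.8% of 82 above 0. The share of genes above 0 in all 6 libraries was 4 of 77 for the mitochondrial ribosome, 79 of 87 for the cytosolic ribosome, 46 of 82 for oxidative phosphorylation and 1592 of 12560 for all rows. These groups also differed in level. In control 1 the median was 7.48 FPKM for the mitochondrial ribosome, 52.1 FPKM for the cytosolic ribosome and 94.6 FPKM for oxidative phosphorylation. It was 2.28 FPKM over all rows. The part of level in detection was not tested.

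**Figure D1:**
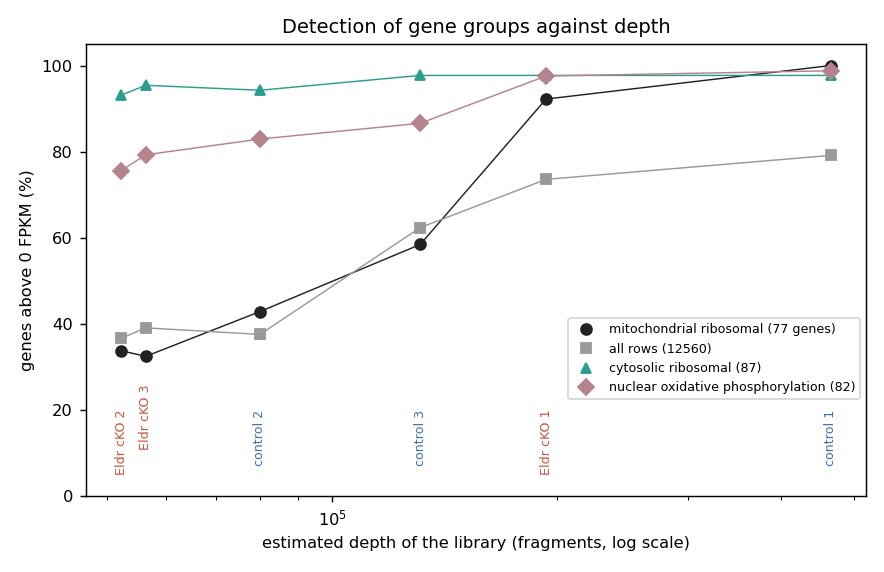
Share of genes above 0 FPKM (y axis, %) against the estimated depth of each library (x axis, fragments, log scale), with library names above the x axis and lines joining the points of a gene group. The mitochondrial ribosomal protein genes go from 33.8% in Eldr cKO 2 to 100% in control 1, while the cytosolic ribosomal protein genes stay at 93.1% or more.

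The values stood on few fragments. Fragments were computed from the estimated depths with the longest annotated transcript as length, which gives an upper estimate at those depths. By this estimate 56 of the 77 genes stood on at least 5 fragments in control 1, 22 in Eldr cKO 1 and 9 in control 3. In control 2, Eldr cKO 2 and Eldr cKO 3 the number was 0. The 33 genes above 0 in control 2 had a median of 0.807 fragments, the 26 in Eldr cKO 2 of 0.938 and the 25 in Eldr cKO 3 of 0.903. Most values above 0 in these libraries thus correspond to about a single fragment. All 77 genes together held at most 703, 31.4 and 126 fragments in the controls and 276, 25.1 and 26.6 in Eldr cKO. A value of 0 is therefore reported as listed at 0, and no level below about 1 fragment could be measured.

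Both subunits showed the same pattern. Of the 51 large subunit genes, 51, 22 and 28 were above 0 in the controls and 48, 19 and 18 in Eldr cKO. Of the 25 small subunit genes, 25, 10 and 17 were above 0 in the controls and 22, 7 and 7 in Eldr cKO. In the deepest library, control 1, the median level was 7.85 FPKM for the large and 6.49 FPKM for the small subunit, and in Eldr cKO 1 it was 6.08 and 5.04 FPKM. Proteins with a bacterial counterpart and those specific to mitochondria had medians of 7.20 and 7.48 FPKM in control 1 and of 5.49 and 5.64 FPKM in Eldr cKO 1. Over the 77 genes the interquartile range was 5.06 to 14.5 FPKM in control 1 and 2.74 to 15.6 FPKM in Eldr cKO 1, wider than the distance between any of these medians. No test was run between classes, since genes of a library are not replicates.

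**Figure D2:**
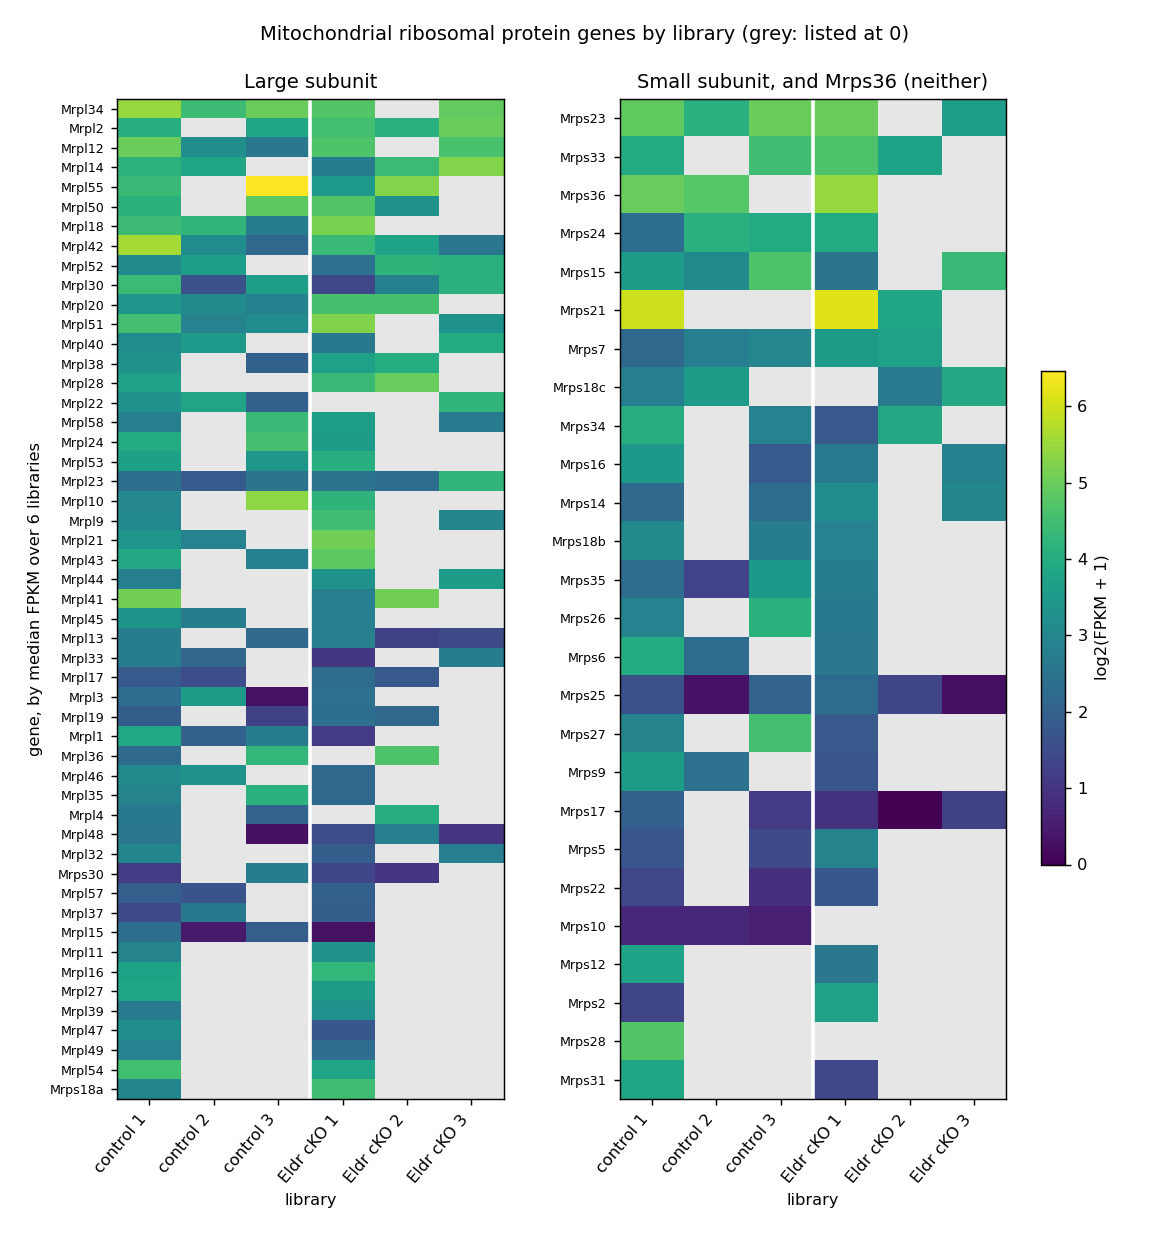
Level of each gene (rows, ordered by the median over 6 libraries) in each library (columns), as log2(FPKM + 1), with large subunit genes on the left and small subunit genes and Mrps36 on the right. Grey marks values listed at 0, which fill most of the columns of control 2, Eldr cKO 2 and Eldr cKO 3, few cells of Eldr cKO 1 and no cell of control 1.

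The 4 genes above 0 in every library differed in level. Mrpl42 encodes a large subunit protein specific to mitochondria and was listed at 47.6, 7.85 and 3.64 FPKM across the controls and at 19.9, 12.4 and 4.85 FPKM across Eldr cKO. Mrpl30 encodes a conserved large subunit protein and was listed at 20.1, 2.07 and 11.04 FPKM across the controls and at 1.62, 6.14 and 16.6 FPKM across Eldr cKO. Mrpl23, at the outlet of the tunnel through which new protein leaves the ribosome, was listed at 4.27, 2.58 and 4.62 FPKM across the controls and at 4.65, 3.91 and 17.9 FPKM across Eldr cKO. For each of these 3 the groups overlapped. Mrps25, a small subunit protein specific to mitochondria, was listed at 2.07, 0.250 and 3.08 FPKM across the controls and at 3.89, 1.57 and 0.191 FPKM across Eldr cKO, again with overlap. Their log2 fold changes of FPKM + 1, Eldr cKO minus control, were -0.09 (SE 1.32), -0.42 (SE 1.36), 0.77 (SE 1.37) and -0.02 (SE 1.36), each smaller than its error. Those of Mrpl42 and Mrps25 turned positive with quantile normalization (0.0752 and 0.39), and that of Mrpl23 was 0.16 without Eldr cKO 3. Mrpl42 and Mrps25 share a stretch of at least 150 bases at 95% identity or more with an annotated pseudogene elsewhere in the genome, and Mrps25 also with the overlapping gene Nr2c2, so their reads may not all be their own.

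By the median over the 6 libraries, the highest gene of the large subunit was Mrpl34 (27.6 FPKM), whose protein is conserved from bacteria. It was listed at 43.6, 20.6 and 30.9 FPKM across the controls and at 25.9, 0 and 29.3 FPKM across Eldr cKO. The highest of the small subunit was Mrps23 (22.4 FPKM), listed at 28.8, 16.1 and 31.0 FPKM across the controls and at 30.6, 0 and 11.4 FPKM across Eldr cKO. For both, Eldr cKO 2 was the library at 0, the library in which a single fragment on 1 kb was worth 19.2 FPKM. Without it the log2 fold change of Mrpl34 went from -1.75 (SE 1.29) to -0.13 and that of Mrps23 from -1.79 (SE 1.31) to -0.35. Next in the large subunit came Mrpl2 (15.9 FPKM), near the centre that joins amino acids, Mrpl12 (15.8 FPKM), in the stalk that recruits translation factors, Mrpl14 (15.2 FPKM) and Mrpl55 (14.9 FPKM). In the small subunit Mrps33 (13.5 FPKM), Mrps24 (9.25 FPKM), at the entry of the messenger RNA, Mrps15 (9.12 FPKM) and Mrps21 (6.42 FPKM) followed. Neighbours in this order did not differ beyond the spread of the libraries. Mrpl55 alone ranged from 0 to 87.6 FPKM, and Mrps21, the highest gene of both deepest libraries at 61.7 and 70.4 FPKM, was listed at 0 in control 2, control 3 and Eldr cKO 3. Mrps21 and Mrps33 each share sequence with a pseudogene elsewhere, by the limits given above for Mrpl42.

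Only the deepest libraries listed 12 of the genes. Mrpl11, Mrpl16, Mrpl27, Mrpl39, Mrpl47, Mrpl49, Mrpl54, Mrps2, Mrps12, Mrps18a and Mrps31 were above 0 in control 1 and Eldr cKO 1 and listed at 0 in the other 4 libraries. Mrps28 was above 0 in control 1 alone, at 25.6 FPKM and an upper estimate of 9.35 fragments. This set, named after its values were seen, includes Mrps12, a protein of the decoding centre, and Mrpl11, at the base of the stalk.

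Across the 77 genes, levels in control 1 and Eldr cKO 1 had a Spearman correlation of 0.48, a description over genes that share length and annotation. For the other 14 pairs of libraries it ranged from -0.08 to 0.34, with most values at 0 or about 1 fragment. Between these 2 libraries 38 of the 77 genes were higher in Eldr cKO 1 and 39 lower, with a median difference of -0.20 on the log2(FPKM + 1) scale. Over all rows 6200 were higher and 4905 lower. With 1 library per genotype that pair has no replicate check.

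The comparison of Eldr cKO with control asks which genes of these samples differ when Eldr is targeted, and no mitochondrial ribosomal protein gene passed its test. The test was limma on log2(FPKM + 1), over genes averaging 1 FPKM or more and with Benjamini-Hochberg adjustment over all of them, and 75 of the 77 genes entered it. Of these, 0 passed an adjusted p of 0.05, against a background of 0% (0 of 9007), and the smallest adjusted p among them was 1.00. An unadjusted p under 0.05 was found for 0 of the 75 as well, while 1.5% of all genes tested reached it.

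Mean levels leaned towards lower in Eldr cKO without any call. Of the 75 genes, 23 had a log2 fold change above 0 and 52 below, while above 0 lay 45.5% and below 0 54.5% of all genes tested. The median over the 75 was -0.37, against -0.13 over all genes tested. It was -0.31 for the large subunit, with 18 above and 33 below 0, and -0.40 for the small subunit, with 5 above and 18 below. Genes with a bacterial counterpart had 17 above and 28 below 0 (median -0.30), and those specific to mitochondria 6 and 22 (median -0.36). With quantile normalization the split was 32 above and 43 below 0, and since the median of all genes moved from -0.13 to 0.01, the genes' median relative to it went from -0.24 to -0.35. The split turned to 40 above and 29 below 0 without control 1 (median 0.20), and came to 37 and 38 without Eldr cKO 3 and 34 and 41 without Eldr cKO 2 (medians -0.04 and -0.19). Without control 2 the median was -0.76 and without Eldr cKO 1 it was -0.98. The median of all genes tested moved with the library left out as well. It was 0.10 without control 1 (53.3% above 0), 0.02 without Eldr cKO 3 (50.6%) and 0.13 without Eldr cKO 2 (54.3%). Without control 2 it was -0.445 (36.2%) and without Eldr cKO 1 -0.76 (33.8%). The 2 shallowest libraries, Eldr cKO 2 and 3, are both of the Eldr cKO group and listed 37 of the 77 genes at 0 together. The share of mitochondrial genome transcripts was 59.7% ± 16.1 in the controls and 37.1% ± 5.61 with Eldr cKO (SD, n = 3). Markers of other cell types had medians above 0. It was 1.35 for 6 macrophage markers (4 above 0, 1 with an unadjusted p under 0.05, 0 called), whose summed level was 7.18 to 104.9 FPKM in the controls and 75.6 to 146 FPKM with Eldr cKO. The macrophage marker Adgre1 was listed at 0 in control 3 and all Eldr cKO libraries, and Cd68 in control 1, control 3 and Eldr cKO 2. The median was 0.48 for 5 erythroid markers (4 above 0), with sums of 319 to 744 and 580 to 682 FPKM, and Alas2 at 0 in control 2 and all Eldr cKO libraries. It was 0.26 for the 12 heart muscle markers (9 above 0) and 0.29 for 6 endothelial markers (3 above 0, sums of 15.1 to 161 and 16.2 to 122 FPKM). The part of depth, of the mitochondrial genome share and of these cell types in the lean was not tested.

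**Figure D3:**
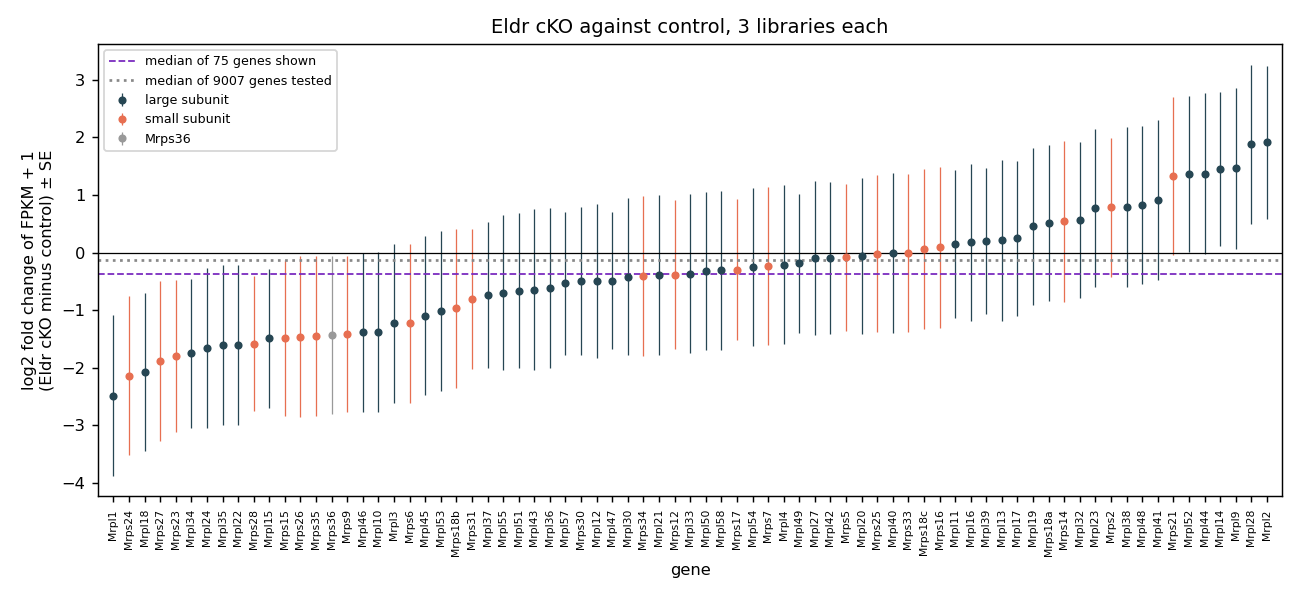
Log2 fold change of FPKM + 1, Eldr cKO minus control (y axis, with SE from limma), for the 75 genes tested, in ascending order along the x axis. Dark points are large subunit, orange small subunit and grey Mrps36, and the dashed and dotted lines mark the medians of these 75 (-0.37) and of all 9007 genes tested (-0.13).

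The sums over the 77 genes, in which a gene at 0 counts as 0 and no pseudocount enters, overlapped between genotypes. With 3 libraries each, a difference within their spread could not be resolved. The summed level was 890, 261 and 537 FPKM across the controls and 833, 336 and 315 FPKM across Eldr cKO, or 563 ± 315 and 495 ± 293 FPKM (SD, n = 3). As a share of all summed FPKM this was 0.206%, 0.0701% and 0.195% in the controls and 0.296%, 0.0834% and 0.0765% in Eldr cKO. The groups overlapped on both measures, and the difference of the means was smaller than either SD. When transcripts of the mitochondrial genome and predicted genes named Gm were left out of the total, the shares were 0.715%, 0.417% and 0.435% in the controls and 0.567%, 0.499% and 0.388% in Eldr cKO. On that scale the means were 0.523% ± 0.167 and 0.485% ± 0.0903 (SD, n = 3). The large subunit alone had 0.346% ± 0.112 and 0.369% ± 0.04998, and the small subunit 0.154% ± 0.0561 and 0.106% ± 0.0445. The small subunit difference, -0.0488 percentage points, was larger in size than the Eldr cKO SD and smaller than the control SD. The 2 libraries with the highest sums, control 1 and Eldr cKO 1, also had the highest summed heart muscle markers, at 9419 and 8623 FPKM against 1017 to 2405 FPKM in the other libraries. They were also the 2 deepest libraries, at an estimated 465924 and 193483 fragments. Control 3 had the lowest heart muscle sum, at 1017 FPKM, but the next highest sum over the 77 genes, at 537 FPKM. The parts of depth and of heart muscle RNA in these sums were not tested.

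**Figure D4:**
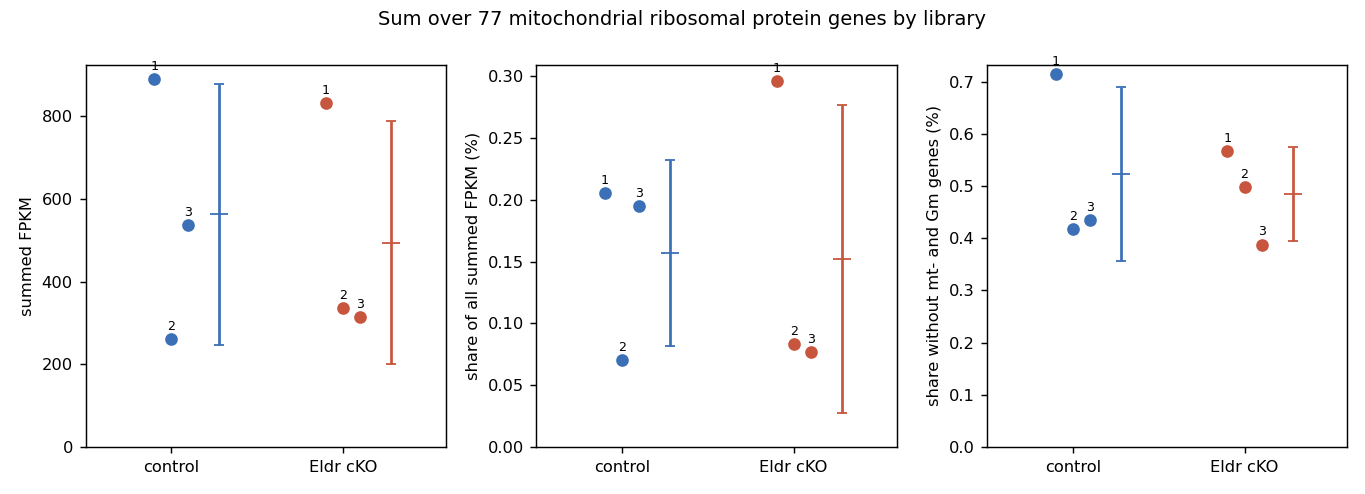
Sum over the 77 genes by library, as FPKM (left), as % of all summed FPKM (middle) and as % of the sum without mitochondrial genome transcripts and predicted genes (right). Points are libraries with their replicate number, bars are mean and SD (n = 3), and the groups overlap in each panel.

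For 4 of the 77 genes the values of the 2 groups did not overlap. Higher in Eldr cKO was 1 of 77, against a background of 1.26% of all rows, which is about the same share. This was Mrpl2 (GRCm38 chromosome 17, 46646229 to 46650139), listed at 15.6, 0 and 13.2 FPKM across the controls and at 21.8, 16.3 and 30.6 FPKM across Eldr cKO. Each Eldr cKO library lay above each control, the highest control being at 15.6 and the lowest Eldr cKO library at 16.3 FPKM. Its log2 fold change was 1.91 (SE 1.33, limma adjusted p = 1.00), and 0.60 without control 2. In Eldr cKO 2 and 3 it stood on at most 0.878 and 1.78 fragments.

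Lower in Eldr cKO were 3 of 77, against a background of 2.21% of all rows. Mrpl1 (GRCm38 chromosome 5, 96209493 to 96266727), which forms the mobile L1 stalk where spent transfer RNA leaves, was listed at 13.6, 2.94 and 5.65 FPKM across the controls and at 1.20, 0 and 0 FPKM across Eldr cKO. Its log2 fold change of -2.48 (SE 1.39) was the largest decrease among the 75, with an unadjusted p of 0.0749 and an adjusted p of 1.00 in limma. In control 1 it stood on at most 22.5 fragments and in Eldr cKO 1 on 0.822. Mrpl15, a conserved large subunit protein, was listed at 4.04, 0.388 and 2.88 FPKM across the controls and at 0.224, 0 and 0 FPKM across Eldr cKO (log2 fold change -1.49, SE 1.20). It shares at least 150 bases at 95% identity or more with 5 genes elsewhere in the genome. The values of 0.388 and 0.224 FPKM stood on at most 0.143 and 0.200 fragments, less than a whole fragment.

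The last of the 3 was Mrps10 (GRCm38 chromosome 17, 47368887 to 47381417), a conserved small subunit protein. It was listed at 0.667, 0.665 and 0.491 FPKM across the controls and at 0 throughout Eldr cKO. Its mean stayed below 1 FPKM, so it did not enter the limma test. In the limma run without that filter, 0 of the 77 genes had an unadjusted p under 0.05, Mrps10 included. In the authors' deposited table Mrps10 had the smallest p of the 77 genes (p = 0.000217, q = 0.205) and ranked number 13 of all 12560 rows. In control 2 and 3 the values stood on at most 0.218 and 0.263 fragments, and in control 1 on 1.27. In all, 2 of the 77 genes had p under 0.05 in the authors' deposited table, Mrps10 and Mrpl1 (p = 0.0204), against a background of 1.98% of all rows. Both were lower in Eldr cKO, as were 1.27% of all rows at that p, while 0.717% were higher.

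Other genes with the smallest unadjusted p also had values at 0 in the shallow libraries. On the lower side, Mrps24 was listed at 4.04, 16.1 and 14.5 FPKM across the controls and at 14.6, 0 and 0 FPKM across Eldr cKO (log2 fold change -2.14, SE 1.38). Mrpl18 was listed at 20.6, 18.0 and 5.52 FPKM across the controls and at 34.8, 0 and 0 FPKM across Eldr cKO (-2.08, SE 1.37). In both, Eldr cKO 1 was at or above most controls while Eldr cKO 2 and 3 were at 0, and without Eldr cKO 1 the changes were -3.46 and -3.80. On the higher side, Mrpl28 was listed at 11.97, 0 and 0 FPKM across the controls and at 19.6, 30.1 and 0 FPKM across Eldr cKO (1.87, SE 1.39), and 0.95 without Eldr cKO 2. Mrpl9 was listed at 7.07, 0 and 0 FPKM across the controls and at 21.2, 0 and 6.63 FPKM across Eldr cKO (1.46, SE 1.39), and 0.46 without Eldr cKO 1. Mrpl14 was listed at 17.2, 13.3 and 0 FPKM across the controls and at 5.52, 20.1 and 37.6 FPKM across Eldr cKO (1.45, SE 1.34), and 0.11 without control 3. In these 3 the groups overlapped, and single libraries set the size of the change.

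Of the tested genes of the machinery around the mitochondrial ribosome, 0 passed in either direction. Their detection also varied with the library. Translation factors were above 0 for 21.4% of those listed in control 2 and 71.4% in Eldr cKO 1. Assembly factors were so for 19.0% and 61.9%, and synthetases for 5.88% and 88.2%, beside 42.9% and 92.2% for the mitochondrial ribosomal protein genes. In the same order of groups the shares were 100%, 90.5%, 100% and 100% in control 1. In Eldr cKO 3 they were 21.4%, 33.3%, 41.2% and 32.5%. Of 6 symbols searched for ribosomal proteins that carry other names, Ict1 is an older name of Mrpl58, already among the 77 genes. The other 5 had a row, with 3 above and 2 below 0 (median log2 fold change 0.09). Among them Ptcd3, a small subunit protein that binds RNA, was listed at 10.4, 0 and 4.95 FPKM across the controls and at 7.84, 3.49 and 5.20 FPKM across Eldr cKO. Of 18 symbols searched for translation factors, some being alternative names of the same gene, 14 had a row. Of these 10 were tested, with 3 above and 7 below 0 (median -0.58). Tufm, the elongation factor that brings transfer RNA to the mitochondrial ribosome, was listed at 21.05, 0 and 16.3 FPKM across the controls and at 32.6, 13.1 and 0 FPKM across Eldr cKO. Mrrf, which recycles the ribosome after translation, was the translation factor above 0 in all libraries, at 0.501 to 7.36 FPKM. Of 25 symbols searched for assembly factors, again with alternative names, 21 had a row and 13 were tested, with 6 above and 7 below 0 (median -0.44). Mrm2, which methylates ribosomal RNA of the large subunit, was listed at 6.53, 0 and 5.21 FPKM across the controls and at 0 throughout Eldr cKO (log2 fold change -1.85, SE 1.24, limma adjusted p = 1.00). For aminoacyl-tRNA synthetases and related genes that charge mitochondrial transfer RNA, 24 symbols were searched, again with alternative names. Of these 17 had a row and 14 were tested, with 8 above and 6 below 0 (median 0.15). Lars2, which charges leucine transfer RNA, was above 0 in all libraries, at 1.05 to 7.77 FPKM across the controls and 2.71 to 10.3 FPKM across Eldr cKO. For the 87 genes of the cytosolic ribosome the median log2 fold change was 0.06, with 49 above and 38 below 0, and for the 82 oxidative phosphorylation genes it was -0.13, with 37 and 45. For the 13 genes of the mitochondrial genome it was -0.99, with 1 above and 12 below 0, 7 with an unadjusted p under 0.05 and 0 called. No test of a difference between these groups and the mitochondrial ribosome was run.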

How the data were processed

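FPKM per gene was taken for 6 libraries from the authors' deposited table. The submitters' processing notes name StringTie, cutadapt and HISAT2 2.0.5, and the build hg19, although the gene IDs are mouse. The group columns of the deposited table hold means of log2(FPKM + 1), and its fold ratio is the antilog of their difference. The p-value and q-value are the authors' own, and the table names no test. Positions of 71 of 77 genes lay within 1 bp of GENCODE M21, so GRCm38 is the build given. Per the labels' protocols either poly(A) selection or ribosomal RNA removal came before a stranded kit, with no library assigned to either.

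The limma test (3.58.1, R 4.3.3) took log2(FPKM + 1) of genes averaging 1 FPKM or more, with a variance trend on mean level and genotype as factor. It was two-sided, with a Benjamini-Hochberg threshold of 0.05. This scale understates changes of low genes. Depth was taken as the most frequent value of the inverse of FPKM times length over genes with 1 annotated transcript. That value was assumed to stand for 1 fragment. Copies were searched with blastn 2.17.0, and 19 of 77 genes share at least 150 bases at 95% identity with a pseudogene elsewhere. Tables were handled in Python 3.11.15. The script was also run on simulated data with known changes. How many such changes the test recovers at these depths is not reported here. Members, lists and the naming rule (genes above 0 in all libraries, highest medians, smallest p, groups without overlap) were chosen with earlier results of these data known. Counts per gene were not used here, so no count model was fitted, and precision is limited by the fragments behind each value.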

Additional observations from a re-analysis of the deposited data

How the results depend on the processing

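No mitochondrial ribosomal protein gene was called under any alternative run, the smallest adjusted p among them in limma ranging from 0.803 to 1.00: pseudocounts of 0.1 and 0.5, no filter or a mean of at least 5 FPKM, quantile normalization, rescaling without mitochondrial genome and predicted genes, robust variance, the replicate number as a block, and each library left out in turn. Over all genes the count of calls, 0, was 1 without control 1 and 4 without Eldr cKO 1. With each library left out, the median log2 fold change ranged from -0.98 to 0.20 for all members, from -0.96 to 0.26 for the large subunit and from -1.27 to -0.08 for the small subunit, and the number of genes above 0 from 16 to 40. At a mean of at least 5 FPKM that number was 11 of 38, since fewer genes were tested. Over all genes tested, the median with each library left out ranged from -0.76 to 0.13. The share above 0 ranged from 33.8% to 54.3% over all genes and from 21.9% to 58.0% over the members.

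Of 294 values of 20 named genes under alternatives, 268 kept their direction and 26 turned. Turned values were 0.0752 for Mrpl42, 0.39 for Mrps25 and 0.16 for Mrps33 with quantile normalization, alone or with the replicate block, and 0.0690 for Mrps25 and 0.19 for Mrps33 after rescaling. With each library left out, the ranges were -0.96 to 1.11 for Mrpl11, -1.29 to 1.06 for Mrpl12, -1.21 to 0.28 for Mrpl30, -0.81 to 0.88 for Mrpl42, -2.50 to 0.76 for Mrpl55, -0.0946 to 3.32 for Mrps21, -0.52 to 0.50 for Mrps25 and -1.42 to 1.39 for Mrps33. The cause was not tested. Detection at 1 FPKM or more was 76, 30 and 41 genes in the controls and 69, 24 and 23 in Eldr cKO. The share of summed FPKM without mitochondrial genome and predicted genes was 0.715%, 0.417% and 0.435% in the controls and 0.567%, 0.499% and 0.388% in Eldr cKO, higher than of all FPKM by construction, since the total is smaller.

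The labels do not say that libraries of the same number belong together. Deviations from the group means correlated at 0.28, 0.15 and 0.0954 across 9007 genes for the same-numbered pairs 1, 2 and 3, and each library correlated best with its own number. Deviations within a group are not independent of one another. Control 1 and Eldr cKO 1 were also the deepest libraries of their groups, at an estimated 465924 and 193483 fragments. The part of depth in these correlations was not tested. With the replicate block 0 of 75 members and 0 genes in all were called, with an unadjusted p under 0.05 for 1 and 223.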

Other observations

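The p-values of the authors' deposited table carry the mark of values at 0. The most frequent p, 0.374, was given to 1932 of 12560 rows, and these were the 1932 rows above 0 in 1 library, whatever the level there. Mrps28, listed at 25.6 FPKM in control 1 and at 0 elsewhere, was the mitochondrial ribosomal protein gene among them. At the other end, Mrps10 reached p = 0.000217 in the authors' deposited table with 3 control values of less than 1 FPKM.

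Values under 0.9 fragments by the upper estimate were found for 20 of the 33 genes above 0 in control 2, 12 of 45 in control 3 and 11 of 71 in Eldr cKO 1. In Eldr cKO 2 and Eldr cKO 3 they were found for 12 of 26 and 12 of 25, and in control 1 for 0 of 77. The smallest was Mrps17 in Eldr cKO 2, at 0.0329 FPKM or 0.00869 fragments. Whether fragments divided between transcripts or loci lie behind them was not tested.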
